A study of Mus musculus with 8 samples.

Results

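The genes described here serve MHC class II antigen presentation in mouse macrophages: the class II chains H2-Aa, H2-Ab1 and H2-Eb1, the invariant chain Cd74, the peptide-exchange chains H2-DMa and H2-DMb1, the transactivator Ciita and the costimulators Cd86, Cd80 and Cd40. They were taken by name, 10 genes of 15853 listed in the comparison, and all 10 have an adjusted p-value. The cells compared were knockout (KO) macrophages of genotype Mirc11fl/fl Mirc22fl/fl Lyz2Cre/Cre (4 libraries) and control macrophages of genotype Mirc11fl/fl Mirc22fl/fl Lyz2+/+ (4 libraries). Both genotypes carry loxP-flanked Mirc11 and Mirc22, the clusters of miR-23, miR-27 and miR-24, and both were grown from bone marrow for 7 days in L929-conditioned medium and then given 10 nM insulin, 25 mM glucose and 250 uM palmitate for 24 h. The KO cells alone have Cre, inserted into Lyz2, which is active across myeloid cells, so Cre, the Lyz2 alleles and cluster deletion cannot be told apart in this comparison. No source used here states the age or sex of the mice, or whether each library came from its own animal, so the errors may hold technical spread only.

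Class II molecules carry peptides from endocytosed protein to the surface, where CD4 T cells read them. An alpha and a beta chain assemble with the invariant chain CD74, which guides them to endosomes. There CD74 is cut down to a peptide called CLIP, and H2-DM exchanges CLIP for antigen peptides. Transcription of these genes depends on CIITA, a coactivator that binds no DNA itself but docks on factors at an X box and a Y box before each gene. Macrophages keep CIITA low until interferon gamma raises it. CD80 and CD86 bind CD28 on T cells, and CD40 receives CD40L from them.

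The promoter sequences that bear on CIITA are shown first. They are from RefSeq (GRCm38.p6), which gave a window for 5 of the 10 genes in the table used here, and each is written 5′ to 3′ in the direction of transcription. Capitals mark the Y box letters CCAAT in either direction (an inverted one reads ATTGG), the X box core letters CCNAGNNAC, and the run of 13 bases that H2-Eb1 and H2-DMb1 have in common.
H2-Aa: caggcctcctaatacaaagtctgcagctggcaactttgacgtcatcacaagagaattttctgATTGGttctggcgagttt
H2-Eb1: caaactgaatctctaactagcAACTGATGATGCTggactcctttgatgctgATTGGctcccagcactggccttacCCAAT
H2-DMb1: ggtttaCCTAGTAACTGATGATGCTaggct
H2-DMa: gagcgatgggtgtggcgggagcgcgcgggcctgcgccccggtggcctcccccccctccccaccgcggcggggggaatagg

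The H2-Aa stretch is chr17:34287854-34287933 on the minus strand, and the H2-Eb1 stretch is chr17:34305757-34305836 on the plus strand. The H2-DMb1 stretch is chr17:34153087-34153116 and the H2-DMa stretch chr17:34122722-34122801, both on the plus strand. An inverted Y box began 48 bases before the start of H2-Aa, 59 before that of H2-Eb1 and 61 before that of H2-DMb1, where it lies past the end of the stretch shown. H2-Eb1 had another Y box in the forward direction, 35 bases before its start. The H2-DMa window at the start shown held neither motif, and a window at a downstream start of H2-DMa held an inverted Y box 198 bases before that start. Both windows lie downstream of 34119541, where GENCODE M21 places the start of H2-DMa. The first of them also holds the start of Brd2 (34122634), on the opposite strand. The H2-DMb1 stretch shown begins past 34153072, where GENCODE M21 places the start of that gene. Its X box core and Y box matches thus lie downstream of the GENCODE start. The Cd80 window, from 38458683, also lies downstream of the GENCODE start of Cd80 (38455561). Which starts of H2-DMa, H2-DMb1 and Cd80 these cells used was not tested, so the windows do not settle which motifs precede these genes. On both strands over the 250 bases before each start, 33.9% of 32851 RefSeq windows held the Y box letters and 14.5% the X box core letters, so single matches are common. The core letters began 98 bases before the start of H2-DMb1 and 180 bases before that of H2-Aa, upstream of the stretch shown. They matched in no window of H2-Eb1, H2-DMa or Cd80. A match to these letters need not be the X box of the gene, and an X box with other letters would be missed. The shared run AACTGATGATGCT was found after the windows were seen and occurs in 2 of the 32851 windows, those of H2-Eb1 and H2-DMb1. The interferon motifs TTCNNNGAA (GAS) and GAAANNGAA (ISRE core), held by 7.02% and 7.13% of windows, matched in none of the windows of H2-Aa, H2-Eb1, H2-DMb1, H2-DMa and Cd80. These matches are letters, not measured binding.

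H2-DMa was the only one of the 10 genes called in the authors' deposited table, at an adjusted p under 0.05 by DESeq2, and it was higher in KO macrophages. That is 1 of 10 genes called higher, against 11.3% of the 14619 genes tested, and 0 of 10 called lower, against 11.7%. In either direction 23.0% of genes tested were called, so the share among the class II and costimulator genes did not stand above the background. Of all genes called, 49.1% were higher in KO macrophages, and 70.9% were once fold changes were centred on the summed means. The 10 genes had no common direction, since 6 log2 fold changes lay below 0 and 4 above it, with a median of -0.11 beside -0.0040 for all genes tested. Values of single libraries were not used, since their columns carry no sample label, and the depth of the libraries is unknown. Each gene is therefore given by the authors' fold change with its standard error (SE) and by a mean for each genotype, derived from the overall mean and the fold change and so without an error of its own. The table does not name the numerator of its fold changes. Their direction was read from Lyz2, the gene that carries Cre in KO cells, at -9.10 (SE 0.42) in the authors' deposited table, so Lyz2 is no separate check of the genotypes.

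**Figure D1:**
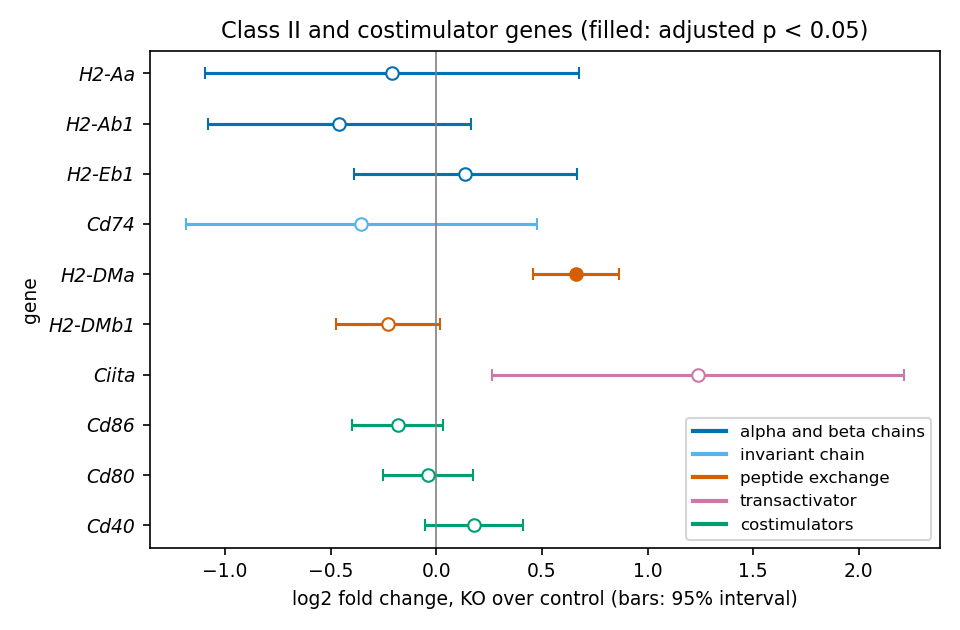
Log2 fold change of KO over control macrophages for the 10 genes, with 95% intervals from the authors' standard errors. The interval leaves out 0 for H2-DMa and Ciita, and H2-DMa alone (filled) passed an adjusted p of 0.05.

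The alpha and beta chains form the antigen-binding molecules I-A (H2-Aa with H2-Ab1) and I-E (H2-Eb1 is its beta chain). H2-Aa had a derived mean of 538 normalized counts in KO macrophages and 622 in control macrophages. The authors' deposited table gave it -0.21 on the log2 scale, KO over control (SE 0.45, adjusted p = 0.788 by DESeq2), and the 95% interval ran from 0.468-fold to 1.60-fold. H2-Ab1, the partner chain of H2-Aa, had 463 normalized counts in KO and 637 in control macrophages. Its value was -0.46 in the authors' deposited table (SE 0.32, adjusted p = 0.304 by DESeq2), an interval of 0.472-fold to 1.12-fold. H2-Eb1 had 276 normalized counts in KO and 251 in control macrophages, and was at 0.14 (SE 0.27, adjusted p = 0.763 by DESeq2) in the authors' deposited table, with an interval of 0.762-fold to 1.59-fold. For each of these 3 chains the 95% interval reached from below 1-fold to above it.

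Cd74, whose product also acts as a receptor for the cytokine MIF, had the second highest level of the 10 genes after H2-DMb1 when counts were divided by transcript length. It had 2345 normalized counts in KO and 2999 in control macrophages. The authors' deposited table put Cd74 at -0.36 (SE 0.42, adjusted p = 0.590 by DESeq2), an interval of 0.439-fold to 1.39-fold. Per kilobase of transcript, the mean over all libraries was 1895 normalized counts for Cd74, 514 for H2-Aa, 454 for H2-Ab1 and 225 for H2-Eb1. These lengths are those of the annotated transcript with the longest coding sequence, not the effective lengths behind the deposited values.

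H2-DM is a heterodimer that stays in endosomes and edits the peptides of the surface molecules. H2-DMa, its alpha chain, had 911 normalized counts in KO and 576 in control macrophages. It rose by 0.66 on the log2 scale (SE 0.10, adjusted p = 1.21e-08 by DESeq2) in the authors' deposited table, a 1.58-fold difference with an interval of 1.37-fold to 1.82-fold. Its beta chain H2-DMb1 had 2558 normalized counts in KO and 2997 in control macrophages, at -0.23 (SE 0.13, adjusted p = 0.183 by DESeq2) in the authors' deposited table. The interval of H2-DMb1, 0.719-fold to 1.01-fold, lies wholly below that of H2-DMa, but the difference between the chains was not itself tested. Per kilobase, the KO mean was 549 for H2-DMa and 1822 for H2-DMb1, and the control mean was 347 for H2-DMa and 2134 for H2-DMb1.

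Counts for H2-DMb1 are uncertain because 37.6% of the 31-base stretches of its transcript also occur in transcripts of H2-DMb2, the neighbouring second beta chain gene. H2-DMb2 itself was at -0.01 (SE 0.23, adjusted p = 0.974 by DESeq2) in the authors' deposited table. The H2-DMa transcript with the longest coding sequence, read on its own strand, has no 31-base stretch in common with transcripts of another gene. The H2-DMa gene overlaps Brd2, which is on the opposite strand. Of the 2668 exon bases of its coding transcripts, 0 lie in exons of Brd2, but 360 of 780 further bases of its other transcripts do, and no source used here says whether counting took account of strand. Brd2 was at -0.16 (SE 0.09, adjusted p = 0.213 by DESeq2) in the authors' deposited table. Read in the same way, 1 transcript per gene, the other 8 genes share at most 3.55% of their 31-base stretches with other genes.

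Ciita, which encodes the transactivator, had the largest fold change of the 10 but missed the threshold. Its derived mean was 117 normalized counts in KO and 49.7 in control macrophages. Per kilobase of transcript this was 27.7 in KO and 11.7 in control macrophages, the lowest level of the 10 genes. Ciita was at 1.24 (SE 0.50, p = 0.0127 unadjusted, adjusted p = 0.0537 by DESeq2) in the authors' deposited table, a 2.36-fold difference with an interval of 1.20-fold to 4.64-fold. Ciita passed when genes with a mean under 50 were left out (adjusted p = 0.0484) and with fold changes centred on the summed means (adjusted p = 0.0416), so its call rests on the setting.

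The costimulators had SEs between 0.11 and 0.12, against 0.27 to 0.45 for the class II chains and Cd74. Cd86 had 1687 normalized counts in KO and 1915 in control macrophages, at -0.18 (SE 0.11, adjusted p = 0.223 by DESeq2) in the authors' deposited table, with an interval of 0.759-fold to 1.02-fold. Cd80, the second CD28 ligand, had 1105 normalized counts in KO and 1136 in control macrophages, at -0.04 (SE 0.11, adjusted p = 0.832 by DESeq2) in the authors' deposited table, an interval of 0.839-fold to 1.13-fold. Centred on the summed means, Cd80 was at 0.02, uncalled. For Cd40, which signals to NF-kB through TRAF proteins, the means were 248 normalized counts in KO and 219 in control macrophages. Cd40 was at 0.18 (SE 0.12, adjusted p = 0.276 by DESeq2) in the authors' deposited table, an interval of 0.965-fold to 1.33-fold. A difference as large as that of H2-DMa lies outside the intervals of these 3 genes.

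The genes differed in the size of their error. The SE of each gene was divided by the median SE of the 200 genes nearest to it in mean count. The ratio was 5.49 for Cd74, 3.91 for H2-Aa, 2.58 for H2-Ab1, 2.10 for Ciita and 1.68 for H2-Eb1. For Cd74, 99% of its 200 neighbours in abundance had a smaller SE. Among the other genes the ratio was 1.55 for H2-DMb1, 1.32 for Cd86, 1.15 for Cd80, 0.963 for H2-DMa and 0.686 for Cd40. The SE covers both genotypes, so these ratios do not say in which genotype the libraries were more spread.

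**Figure D2:**
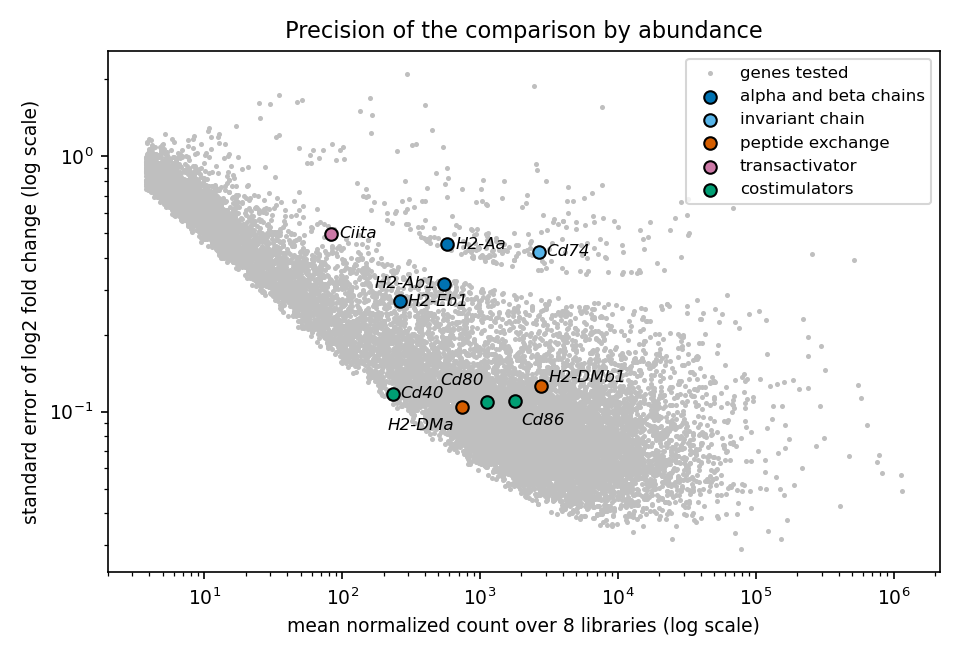
Standard error of the log2 fold change against mean normalized count over 8 libraries, both on log scales, for all genes tested (grey) and the 10 genes (coloured by role). Cd74, H2-Aa and H2-Ab1 sit above most genes of like abundance, with ratios of 5.49, 3.91 and 2.58, while Cd40 and H2-DMa sit at or under the middle.

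Mature miRNAs of the floxed clusters, other than miR-23b, are shown because the study's design turns on them. They are from RefSeq (GRCm38.p6), with the seed (bases 2 to 8) in capitals. The miR-23a and miR-27a forms and one copy of miR-24 come from Mirc11 on chromosome 8, and miR-27b and the other copy of miR-24 from Mirc22 on chromosome 13, the cluster that also holds miR-23b.
mmu-miR-23a-3p: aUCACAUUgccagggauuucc
mmu-miR-27a-3p: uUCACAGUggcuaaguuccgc
mmu-miR-27b-3p: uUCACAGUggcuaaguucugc
mmu-miR-24-3p: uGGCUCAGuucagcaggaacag

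The seeds of miR-27a and miR-27b are the same. Matches to bases 2 to 8 were sought in the annotated 3' UTR that was longest for a gene (GENCODE M21, GRCm38), and capitals mark the match.
H2-Eb1: gtctggcacttCTGAGCCagtctgctgtc
Ciita: gctctcaatcaCTGAGCCatttctctagc
H2-DMa: tttactcctgcACTGTGAcacacgagatt

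The H2-Eb1 match, to miR-24, lies at chr17:34316137-34316143 in exon 6 and is in the 3' UTR of both coding transcripts. The Ciita match, also to miR-24, lies at chr16:10528107-10528113 in exon 19 and is in the 3' UTR of 2 of 5 coding transcripts. Both are followed by an A and so extend to 8 nucleotides. The H2-DMa match, to miR-27, lies at chr17:34138136-34138142 in the 3' UTR of 1 of 3 coding transcripts, and it is not in the 3' UTR of the transcript with the longest coding sequence. With the UTR of that transcript, H2-Eb1 alone of the 10 genes held a match. Thus 3 of 10 genes had a match in the longest 3' UTR, against 40.8% of 13094 genes tested, or 1 of 10 against 37.0% of 12889 by the longest coding sequence. No gene of the 10 held a match to the miR-23a seed, which 16.7% of genes tested held.

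The positions of the genes were read from GENCODE M21 on GRCm38, the assembly of mm10. H2-DMa (34119541 to 34139101), H2-DMb1 (34153072 to 34160230), H2-Ab1 (34257689 to 34269419), H2-Aa (34282744 to 34287823) and H2-Eb1 (34305867 to 34316674) lie on chromosome 17 within 197.1 kb. Ciita (10480059 to 10528418), Cd86 (36603869 to 36666081) and Cd80 (38455561 to 38496335) lie on chromosome 16, and Cd40 (165055627 to 165072948) on chromosome 2. Cd74 lies away from the others, on chromosome 18. The class II region holds 7 other genes that were tested, among which 0 were called higher and 1 lower. Of all genes tested, 11.3% were called higher and 11.7% lower. That gene, Psmb8, an immunoproteasome subunit gene, was at -0.53 (SE 0.19, adjusted p = 0.0312 by DESeq2) in the authors' deposited table. Tap1 and Tap2, the peptide transporter of class I presentation, were at -0.60 (SE 0.25) and -0.39 (SE 0.16) in the authors' deposited table, neither of them called (adjusted p = 0.068 and 0.0611 by DESeq2). Psmb8, Tap1 and Tap2 were named after their values were seen. H2-DMa was the only gene of the region with a fold change whose interval lay above 0.

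**Figure D3:**
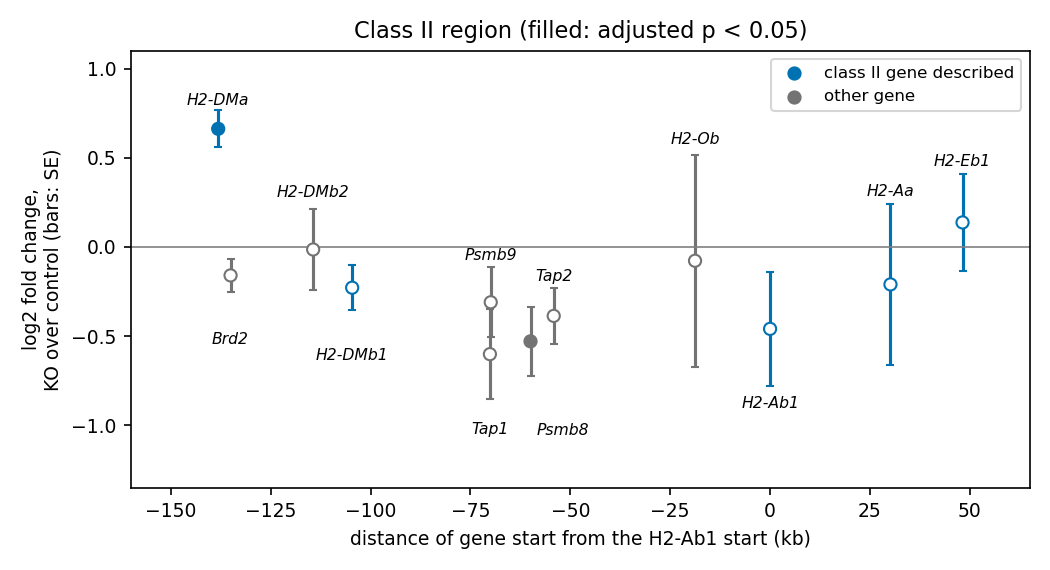
Log2 fold change of KO over control with its SE for the 12 genes tested in the class II region, by distance of the gene start from that of H2-Ab1. H2-DMa, at 0.66, is the only filled point above 0, and Psmb8, at -0.53, the only one below it.

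Other genes of the pathway were counted by lists. Of the promoter-binding factors and acetyltransferases that CIITA works with, 3 of 10 were called lower, against 11.7% of all genes tested, and 0 higher (median log2 fold change -0.11). These were Kat2b, the acetyltransferase PCAF, at -0.40 (SE 0.12, adjusted p = 0.00499), Rfxank, a subunit of the X box factor RFX, at -0.25 (SE 0.09, adjusted p = 0.0288) and Creb1, whose product also binds the X box region, at -0.20 (SE 0.07, adjusted p = 0.0357 by DESeq2 in the authors' deposited table). Nfya, a subunit of the Y box factor, was at -0.16 (SE 0.09, adjusted p = 0.190 by DESeq2) in the authors' deposited table. Centred on the summed means, Kat2b alone kept its call.

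Of the genes that act on Ciita, 2 of 13 were called lower, a share near the 11.7% of all genes tested, and 0 higher (median -0.19). Spi1, which encodes the myeloid factor PU.1, was at -0.34 (SE 0.10, adjusted p = 0.00462 by DESeq2) and Irf8, an interferon regulatory factor, at -0.12 (SE 0.04, adjusted p = 0.0286 by DESeq2) in the authors' deposited table. With fold changes centred on the summed means, Spi1 alone kept its call. The interferon gamma receptor chain Ifngr1 was at -0.12 (SE 0.05, adjusted p = 0.0828 by DESeq2) and Prdm1, which encodes a repressor of Ciita, at -0.25 (SE 0.11, adjusted p = 0.0998 by DESeq2) in the authors' deposited table. Of the 13 genes, 3 had a log2 fold change above 0 and 10 below it.

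Endosomal proteases, which cut CD74 and antigens, were listed with Marchf1 and Marchf8, ubiquitin ligases that act on membrane proteins. Of these 10 genes 3 were called lower, against 11.7% of all genes tested, and 0 higher (median -0.12). Ctss, which encodes cathepsin S, the main protease of late CD74 cleavage in macrophages and dendritic cells, fell to a mean of 208679 normalized counts in KO macrophages, against 383890 in control macrophages. The authors' deposited table gave Ctss -0.88 (SE 0.18, adjusted p = 2.48e-05 by DESeq2). Ctsb, cathepsin B, was at -0.24 (SE 0.06, adjusted p = 0.000314 by DESeq2) and Ctsl, cathepsin L, at -0.22 (SE 0.07, adjusted p = 0.00888 by DESeq2) in the authors' deposited table. Centred on the summed means, Ctss and Ctsb kept their calls and Ctsl did not. Ctsd, cathepsin D, was at -0.11 (SE 0.05, adjusted p = 0.0847 by DESeq2) there.

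Other ligands and receptors that act on T cells were mixed, with 3 of 16 called higher and 3 lower, against 11.3% and 11.7% of all genes tested (median -0.19). Nectin2, a ligand of TIGIT and CD226, rose by 0.66 (SE 0.08, adjusted p = 2.17e-14 by DESeq2) and Cd276, which encodes B7-H3, by 0.70 (SE 0.14, adjusted p = 1.03e-05 by DESeq2) in the authors' deposited table. Cd48, the ligand of CD244, was at -0.26 (SE 0.05) and Vsir, which encodes VISTA, at -0.37 (SE 0.09) in the authors' deposited table, both called. The remaining calls, named after their values were seen, were Tnfsf14, encoding LIGHT, at 1.02 (SE 0.30) and Cd274, encoding PD-L1, at -0.90 (SE 0.24) in the authors' deposited table. CD40 signalling had 0 of 10 members called, against 23.0% of all genes tested called in either direction. Their adjusted p ran from 0.161 to 0.99 by DESeq2 (Relb -0.17, Nfkb2 0.10, Traf2 -0.10 and Traf3 -0.09, as log2 values of the authors' deposited table). By unadjusted p under 0.05 in the same DESeq2 results, 0 of these 10 passed as well. Of other class II chains H2-Oa, H2-Ob and H2-DMb2 were tested and 0 were called, beside the same 23.0% of all genes tested. Their adjusted p ran from 0.799 to 0.974 by DESeq2, with an unadjusted p of at least 0.658. H2-Ea, H2-Ea-ps and H2-Eb2 were not among the genes listed and so were not analysed here.

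**Figure D4:**
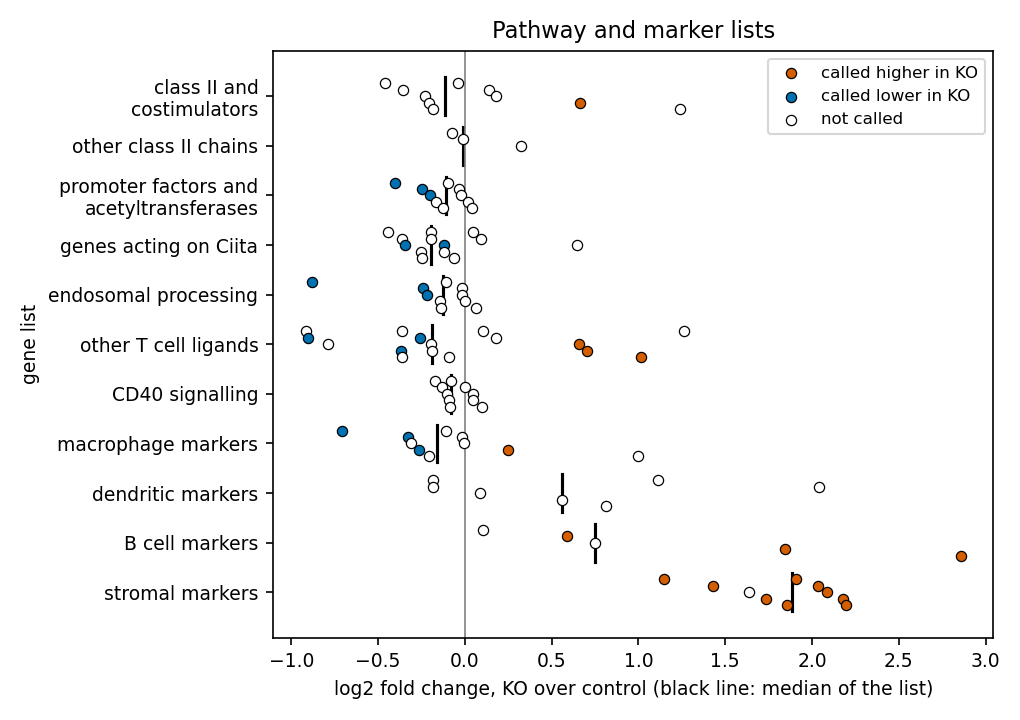
Log2 fold change of KO over control for each gene of the pathway and marker lists, with the median of each list as a black line. Among the class II and costimulator genes 1 point is called higher and 0 lower, while 9 of 10 stromal markers are called higher. Of all genes tested, 11.3% were called higher and 11.7% lower.

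Cells other than macrophages can carry class II genes, so their markers were read in the same table. Fewer cells of a type and less RNA per cell cannot be told apart in these bulk libraries. Of the B cell markers, 3 of 5 tested were called higher, against 11.3% of all genes tested. The authors' deposited table had Ebf1 at 2.86 (SE 0.66, adjusted p = 0.000262), Ighm at 1.85 (SE 0.67, adjusted p = 0.0290) and Cd22 at 0.59 (SE 0.14, adjusted p = 0.000349 by DESeq2). Ebf1 had a mean of only 17.2 normalized counts and dropped out at a mean of at least 50. Ighm lost its call at an adjusted p under 0.01. The summed mean over the 5 B cell markers was 3563 normalized counts in KO and 1725 in control macrophages. Most of it came from Cd22, at 1779 in KO and 1182 in control macrophages, and Ighm, at 1607 in KO and 447 in control macrophages. The defining markers Cd79a and Pax5 were not analysed here, and Ms4a1 had a mean of 12.5. Of the dendritic cell markers 0 of 7 were called, against 23.0% of all genes tested in either direction (median log2 fold change 0.56). At an unadjusted p under 0.05 by DESeq2, 2 of the 7 passed. These 2 were Clec10a, at 1.11 (SE 0.47, adjusted p = 0.0655 by DESeq2), and Dpp4, at 2.04 (SE 0.87, adjusted p = 0.0719 by DESeq2) with a mean of 5.47 normalized counts. Zbtb46, with a mean of 18.2 normalized counts, was at 0.81 (SE 0.48, adjusted p = 0.214 by DESeq2) in the authors' deposited table. Batf3 was at -0.18 there (SE 0.16, adjusted p = 0.451 by DESeq2). Of the 7 genes, 5 had a log2 fold change above 0 and 2 below it. Summed over the 7 genes, the mean was 5475 normalized counts in KO and 4668 in control macrophages, of which Itgax, also expressed by macrophages, had 4263 in KO and 4020 in control macrophages, and Flt3, Ccr7 and Cd209a were not analysed here. Of T and NK cell markers Klrb1c alone was tested, at 0.03 (SE 0.87, adjusted p = 0.986 by DESeq2) in the authors' deposited table, and Cd3e, Cd3d, Cd3g, Ncr1, Gzma, Ifng and Nkg7 were not analysed here. Stromal markers were called higher in 9 of 10, against 11.3% of all genes tested (median 1.88, summed mean 5670 in KO and 1485 in control macrophages). The authors' deposited table had Postn, an extracellular matrix gene, at 1.86 (SE 0.22, adjusted p = 2.02e-14 by DESeq2). The part of any of these cells in the values of H2-DMa or Ciita was not tested.

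Markers of the labelled cell type, macrophages, were abundant. Adgre1, which encodes F4/80, had a mean of 144462 normalized counts, Csf1r 163291 and Cd68 104490 over all libraries. The list of 10 macrophage markers had 1 called higher and 3 lower, against 11.3% and 11.7% of all genes tested, and 6 were not called. Adgre1 was called higher in the authors' deposited table at 0.25 (SE 0.07), and Csf1r at -0.33 (SE 0.09), Cd68 at -0.26 (SE 0.07) and Fcgr1 at -0.71 (SE 0.24) were called lower. By sign, 2 of the 10 lay above 0 and 8 below it (median -0.16).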

How the data were processed

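Polyadenylated RNA of 8 libraries, 4 per genotype, was sequenced. FastQC, cutadapt, Salmon and DESeq2 with mm10 are named, without versions or settings, per the submitters' processing notes. The deposited table holds, per the file headers, a signal (mean normalized count over all libraries), a log2 fold change with its standard error, a Wald score, and a p-value with its adjusted p-value, all by the authors. Recomputed Benjamini-Hochberg values differed from the deposited ones by at most 5.66e-09.

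A second table has 8 numbered columns of values that match no sample label. They were not used, so depth, counting error, values per library and refits are not given. The header does not name the numerator. Negative was read as lower in KO from Lyz2.

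Each genotype's mean was computed from the overall mean and the fold change, taking 4 libraries on each side, and carries no error of its own. Intervals are 95% normal intervals from the SE. Of 15853 genes, 14619 have an adjusted p-value, and 15187 (95.8%) matched 1 GENCODE M21 gene by symbol. Genes named are the 10 members, up to 4 per list with the smallest p, and Lyz2; any other gene was chosen after its values were seen. The members and lists were chosen with earlier results of these data known. Steps were tested on simulated data in Python 3.11.15 with scipy 1.17.1.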

Additional observations from a re-analysis of the deposited data

How the results depend on the processing

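The alternatives were no filter, a mean of at least 50, an adjusted p under 0.01, and fold changes centred on the median of all genes (a shift of -0.0040) or on the summed means (a shift of -0.06). H2-DMa was called higher under each of the 5, and no member was called lower under any. Members called higher became 2 in place of 1, with Ciita added, at a mean of at least 50 and with summed means. Cd80 turned to 0.022 on the log2 scale with summed means, uncalled. Promoter-binding factors and acetyltransferases called lower became 1 (Kat2b, an acetyltransferase) in place of 3, and Ciita-controlling genes called lower 1 in place of 2, at an adjusted p under 0.01 and with summed means. Over all genes, summed means gave 2339 higher and 960 lower calls (70.9% higher) in place of 1651 and 1712 (49.1%). Members with a seed match became 1 in place of 3 with the UTR of the longest coding sequence, chosen after seeing the data, and 2 with 8-nucleotide matches. The cause of these moves was not tested.

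No paired analysis was possible because the numbered value columns link to no mouse, genotype or replicate. For the same reason leaving out replicates and other pseudocounts were not run. With 4 libraries per genotype, the intervals of H2-Aa, H2-Ab1 and Cd74 hold falls of over 2-fold.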
